A study of Mus musculus with 24 samples.

Results

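The probes described here lie in the mouse immunoglobulin kappa and heavy chain loci. They were chosen by position alone: every non-control probe of a one-colour Agilent mouse expression array whose annotated mm9 coordinates fall within chr6:67500000-70700000 (kappa locus) or chr12:114490000-117250000 (heavy locus). The rule gave 109 kappa probes and 147 heavy probes, 256 of the 39429 non-control probes on the array. Of the kappa probes, 95 match variable (V) gene segments, 1 the constant region, 2 other genes and 11 carry no gene name. Of the heavy probes, 97 match V segments, 13 constant regions, 6 other genes and 31 carry no gene name.

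The arrays measured RNA from blood that was drawn by cardiac puncture from male mice of the strain C57BL/6J, 24 h after they had received 7 Gy of x-rays or 0 Gy. Their genotype label is either Gadd45aWT or Gadd45aKO. Gadd45a is a stress-induced gene, and the series title calls it an autoimmune suppressor. There were 5 arrays of wild type (WT) mice at 0 Gy, 5 of WT at 7 Gy, 5 of the other genotype at 0 Gy and 9 of it at 7 Gy. The series' design text calls these independent experiments, no label says which animal gave which array, and the age of the mice is not given in the sources used here. The labels also do not say which tissue or cells the deletion covers. Its targeted gene was checked first. The Gadd45a probe read 0.50 ± 0.16 (SD, n = 4) (log2 level, relative to the bright probes of each array) in the group labelled Gadd45aKO at 0 Gy and 0.65 ± 0.23 (SD, n = 5) in WT at 0 Gy, and after 7 Gy it read -0.01 ± 0.34 (SD, n = 9) and -1.21 ± 0.32 (SD, n = 5). The difference between the labels was -0.15 at 0 Gy (limma adjusted p = 0.86) and 1.2 at 7 Gy (adjusted p = 5.39e-05), so the probe was higher in the Gadd45aKO arrays at 7 Gy and was not called at 0 Gy. Where it lies relative to the deleted part of the gene is not given in the sources used here, so that group is called KO-labelled throughout, and every direction between the genotypes rests on that label.

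Antibodies are built from paired heavy and light chains, and most mouse antibodies carry a kappa light chain. Developing B cells join a V segment to short D and J segments in the heavy locus and a V segment to a J segment in the kappa locus, and each rearranged V region is then spliced to a constant region. The heavy constant region sets the class: mu and delta sit on the surface of naive B cells, and gamma, epsilon and alpha follow after class switching. Probes to constant regions therefore read RNA of nearly all B lineage cells of a class, whereas a probe to a single V segment reads the subset of cells that rearranged that segment or a close relative.

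The probes are 60 bases long, and the ones the results turn on are given here 5′ to 3′ as the array holds them, with mm9 coordinates and the strand taken from the order in which the array annotation writes the coordinates. The first group covers the constant regions of kappa, mu, delta and alpha chains, whose signal stayed above background on nearly all arrays and which therefore carry the measured size of the radiation response.
Igkc, probe A_55_P2060897, chr6:70676692-70676751, plus strand: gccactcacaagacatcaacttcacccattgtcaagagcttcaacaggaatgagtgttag
Ighm, probe A_51_P485421, chr12:114659630-114659689, minus strand: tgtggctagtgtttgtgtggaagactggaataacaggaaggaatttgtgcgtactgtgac
Ighd, probe A_51_P266248, chr12:114654277-114654336, minus strand: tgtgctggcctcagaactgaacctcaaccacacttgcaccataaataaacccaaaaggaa
Igha, probe A_51_P509679, chr12:114496985-114497044, minus strand: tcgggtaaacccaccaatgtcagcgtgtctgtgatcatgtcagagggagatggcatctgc
Igha, probe A_55_P1960148, chr12:114497090-114497149, minus strand: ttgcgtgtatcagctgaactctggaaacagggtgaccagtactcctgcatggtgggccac

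The second group shows how V segment probes overlap in sequence. The pair annotated to Igkv3-10 shares a run of 49 bases, in capitals, and Igkv16-104 is the kappa V segment whose response differed between the genotype labels.
Igkv3-10, probe A_52_P374653, chr6:70523153-70523212, plus strand: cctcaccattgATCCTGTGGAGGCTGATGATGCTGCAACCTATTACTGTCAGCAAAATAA
Igkv3-10, probe A_55_P1978033, chr6:70523164-70523223, plus strand: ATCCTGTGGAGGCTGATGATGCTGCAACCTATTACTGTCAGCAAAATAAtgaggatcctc
Igkv16-104, probe A_55_P2043430, chr6:68376007-68376066, plus strand: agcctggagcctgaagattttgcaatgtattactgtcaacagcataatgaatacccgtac

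The third group holds probes inside the windows that are not annotated as immunoglobulin segments, shown because they were bright. Capitals mark a run of 19 bases that a kappa locus probe without a gene name shares with the heavy locus probe of Gm19843.
Probe A_55_P1988328, chr6:68684156-68684215, minus strand: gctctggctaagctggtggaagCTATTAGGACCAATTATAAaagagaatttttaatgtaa
Gm19843, probe A_55_P1960083, chr12:117070139-117070198, plus strand: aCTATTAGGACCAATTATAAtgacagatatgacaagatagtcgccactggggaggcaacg
Gm9238, probe A_55_P2121437, chr12:116784353-116784412, minus strand: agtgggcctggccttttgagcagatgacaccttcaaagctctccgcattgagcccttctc

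Shared sequence was common among the V segment probes. A run of 15 or more identical bases joined 281 pairs of locus probes, which together included 71 kappa and 79 heavy members, and 6 of those pairs crossed between the loci. Runs of 40 or more bases joined 8 pairs, among them Igkv4-57-1 with Igkv4-62 (53 bases), Igkv2-116 with Igkv2-109 (45 bases), Igkv3-12 with Igkv3-4 (42 bases) and Igkv6-17 with Igkv8-28 (40 bases). Such probes can take up each other's transcripts, so members are not independent of each other and a value for 1 V segment may include its relatives; how much they share signal was not tested.

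Levels are log2 processed signal minus, for each array, the 75th percentile of the 7857 probes that were well above background on all 24 arrays, so a level of 0 is a fairly bright probe. Well above background is the scanner software's own call. Changes were tested with limma in 1 fit of all 4 groups over the 19651 probes well above background on at least 5 arrays, with Benjamini-Hochberg adjustment over all of them, and a probe is said to be lower or higher where its adjusted p was under 0.05. The arrays varied in quality: 25.7% to 50.9% of probes were well above background, and 4 arrays had repeat spots of the same probe that varied by over 10% (12.3% to 27.5%). KO-labelled 0 Gy replicates 1 and 4 differed by less than repeat spots within an array and were counted as 1 sample, which leaves n = 4 in that group. WT 0 Gy replicate 1, the array with the noisiest repeat spots, also fell below that limit against the other WT 0 Gy arrays (ratios of 0.868 to 0.987) because its own repeat spots set a wide limit, and it was kept apart. Each of slides 1 to 5 held 1 array of every group and slide 6 held 4 KO-labelled 7 Gy arrays alone.

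**Figure D1:**
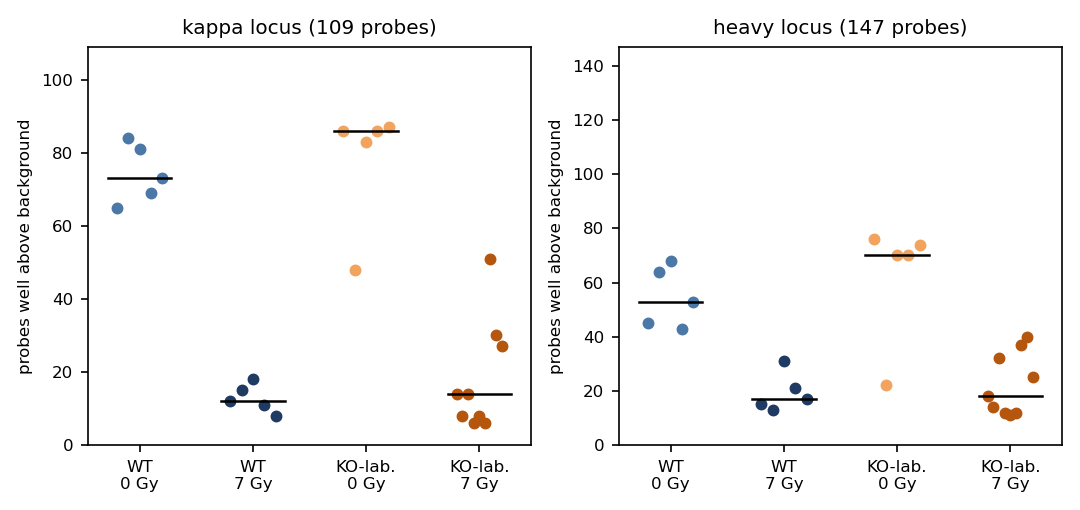
Number of kappa locus probes (of 109) and heavy locus probes (of 147) well above background on each of the 24 arrays, by group; points are arrays and lines are group medians. The median fell from 73 to 12 kappa probes in WT and from 86 to 14 in the KO-labelled group, with 1 KO-labelled 7 Gy array at 51. On that array 50.9% of all probes were well above background.

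Signal from the kappa locus fell to background across most of its probes after 7 Gy in both genotype groups. In WT blood, between 65 and 84 of the 109 kappa probes were well above background at 0 Gy (median 73) and between 8 and 18 at 7 Gy (median 12). In KO-labelled blood the count was 48 to 87 at 0 Gy (median 86) and 6 to 51 at 7 Gy (median 14). The groups did not overlap in WT and overlapped in the KO-labelled mice through 1 array at each dose. The low 0 Gy count was that of replicate 2, an array with noisy repeat spots. Over all probes of the array, 36.8% to 48.9% were well above background in WT at 0 Gy and 39.2% to 45.9% at 7 Gy. In KO-labelled blood these shares were 26.1% to 48.2% and 25.7% to 50.9%. How much of the fall in kappa counts goes with the share over all probes was not tested. Among KO-labelled 7 Gy arrays the 5 on slides shared with the other groups had 6 to 14 kappa probes above background and the 4 on slide 6 had 6, 51, 30 and 27. The share of all probes above background also differed, at 25.7% to 40.3% on the former. On the slide 6 arrays it was 32.1%, 50.9%, 48.7% and 43.4%, in the same order. The median level of all 109 probes lay between -5.35 and -4.90 in WT at 0 Gy and between -8.77 and -8.22 at 7 Gy, and between -4.80 and -4.47 in KO-labelled 0 Gy arrays and between -8.65 and -6.75 at 7 Gy, so by this measure both doses stood apart in both groups.

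In the heavy locus fewer probes were above background to begin with, and their number also fell. In WT blood, 43 to 68 of its 147 probes were well above background at 0 Gy (median 53) and 13 to 31 at 7 Gy (median 17). In KO-labelled blood the counts were 22 to 76 (median 70) and 11 to 40 (median 18). The shares over all probes given for the kappa counts hold for these arrays too. The locus median moved from between -7.67 and -7.02 to between -8.73 and -8.22 in WT, and from between -7.44 and -6.01 to between -8.96 and -6.82 in KO-labelled mice, where the groups overlapped. Blood is a mixture of cells, and in these bulk samples fewer B cells and less immunoglobulin RNA per cell cannot be told apart.

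Probe by probe, 76 of the 84 kappa probes tested were lower at 7 Gy in WT mice and none was higher, against 13.2% of all tested probes lower in that comparison. In KO-labelled mice 79 of the 84 were lower and none was higher, against 34.8% of all tested probes. In the heavy locus 50 of 68 tested probes were lower in WT and 50 of 68 in KO-labelled mice, and again none was higher. The probes that entered the test did so mainly through their 0 Gy arrays, since all 84 kappa probes were above background on at least 5 arrays at 0 Gy but 15 were at 7 Gy, and the heavy counts were 61 and 20 of 68; these counts are therefore a description. Without the filter, over all members, 75 of 109 kappa probes were lower in WT (4.6% of all probes) and 81 in KO-labelled mice (14.9% of all probes), and 49 and 54 of the 147 heavy probes were lower.

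The median change over all 109 kappa probes was -2.79 on the log2 scale in WT and -2.75 in KO-labelled mice, and over all 147 heavy probes it was -0.65 and -0.58. Among tested probes alone the median change was -3.29 and -3.35 for the kappa locus and -1.94 and -1.92 for the heavy locus. Over all tested probes of the array it was -0.05 and -0.29. Among the kappa probes called lower, 58 of 76 in WT and 31 of 79 in KO-labelled mice were at background on every 7 Gy array, so for those the data give a bound and not a size. Set against the lowest signal that counted as above background, 52 of the 58 WT probes fell at least 1.08-fold to at least 22-fold (median 4.44-fold), and 29 of the 31 KO-labelled ones at least 1.16-fold to at least 10.7-fold (median 2.70-fold). For the heavy locus 26 of 31 such probes in WT had bounds from 1.09-fold to 7.86-fold, and 19 of 23 in KO-labelled mice from 1.08-fold to 4.66-fold. All bounds, here and below, were set on the processed signal and need not hold under another treatment of background.

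These counts depended strongly on the treatment of background. With normexp background correction of the raw spot and background signals (offset 50) in place of the scanner software's processed signal, 2 kappa probes were called lower in WT and 3 in KO-labelled mice, and 4 and 5 heavy probes. The median change of the tested kappa probes became 0.25 and -0.27, while that of all tested probes became 0.64 and 0.48, and the median residual SD of the kappa probes rose from 0.63 to 0.99. The constant region probes of Igkc, Ighm and Ighd, the Igha probe A_51_P509679 and the V segment Igkv4-71 stayed lower in both genotype groups under that correction. Their sizes moved by different amounts, from -3.94 to -3.50 for Igkc in WT, from -1.54 to -1.30 for Igha, from -2.83 to -1.68 for Ighm, from -4.60 to -2.57 for Ighd and from -3.61 to -1.72 for Igkv4-71. In KO-labelled mice the corrected changes were -3.20 for Igkc, -1.94 for Igha, -2.37 for Ighm, -2.76 for Ighd and -1.89 for Igkv4-71. The other calls of V segments were made on the processed signal alone.

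The kappa constant region, which every kappa light chain carries, fell in both genotype groups. The level of Igkc was 2.92, 2.15, 2.09, 2.35 and 2.20 in the 5 WT 0 Gy arrays and -1.36, -1.02, -1.81, -1.88 and -1.92 in the 5 WT 7 Gy arrays. In KO-labelled mice it was 2.61, 2.28, 2.75 and 2.70 at 0 Gy and lay between -2.40 and 0.10 at 7 Gy, with a median of -1.22. All 7 Gy arrays were below all 0 Gy arrays in each group. The change was -3.94 ± 0.34 (SE, 15.3-fold lower, limma adjusted p = 1.74e-08) in WT and -3.64 ± 0.33 (SE, 12.5-fold lower, adjusted p = 1.74e-08) in KO-labelled mice. Within the 5 slides that held every group it ranged from -4.27 to -3.17 in WT and from -4.06 to -2.60 in KO-labelled mice, and the 2 responses differed by 0.30 ± 0.48 (SE, adjusted p = 0.702).

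The mu and delta constant regions, which naive B cells splice from 1 primary transcript, also fell in both groups. Ighm read -1.15, -1.03, -0.97, -0.67 and -0.70 in WT at 0 Gy and -3.58, -3.50, -3.88, -3.97 and -3.75 at 7 Gy, a change of -2.83 ± 0.34 (SE, 7.12-fold lower, adjusted p = 1.59e-06). In KO-labelled mice it read -0.68, 0.12, -0.70 and 0.02 at 0 Gy and between -5.30 and -2.93 at 7 Gy (median -4.19), a change of -3.74 ± 0.32 (SE, 13.4-fold lower, adjusted p = 1.06e-08). The groups did not overlap in either case. The responses differed by -0.91 ± 0.47 (SE, adjusted p = 0.191), which misses the threshold, and with the replicate number as a block by -0.92 (adjusted p = 0.0416). Fits with a block, here and below, count every array singly. They take the KO-labelled 7 Gy effect from slides 1 to 5 alone.

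Ighd fell further than any other tested heavy chain probe in both groups. It read 0.01, -0.44, -0.20, -0.82 and -0.43 in WT at 0 Gy and -4.75, -4.69, -4.38, -5.57 and -5.50 at 7 Gy, a change of -4.60 ± 0.48 (SE, 24.3-fold lower, adjusted p = 2.29e-07). The KO-labelled arrays read 0.08, -0.17, 0.13 and -1.14 at 0 Gy and between -6.11 and -2.69 at 7 Gy (median -4.43), a change of -4.48 ± 0.46 (SE, 22.3-fold lower, adjusted p = 1.07e-07). No 7 Gy array reached a 0 Gy array, and 1 of the 9 KO-labelled 7 Gy arrays had the probe at background.

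The alpha constant region, carried by IgA-producing cells, fell least among the bright constant regions. The Igha probe A_51_P509679 read 0.06, -0.04, -0.13, -0.02 and -0.08 in WT at 0 Gy and -1.37, -1.36, -1.64, -1.65 and -1.88 at 7 Gy, a change of -1.54 ± 0.25 (SE, 2.91-fold lower, adjusted p = 6.39e-05). The KO-labelled arrays read 0.37, 1.06, 0.20 and 1.40 at 0 Gy and between -1.65 and -0.09 at 7 Gy (median -1.32), a change of -1.92 ± 0.24 (SE, 3.79-fold lower, adjusted p = 1.1e-06). The groups did not overlap. The second Igha probe, A_55_P1960148, changed by -1.52 ± 0.28 (SE, adjusted p = 0.000267) in WT and -1.84 ± 0.26 (SE, adjusted p = 7.1e-06) in KO-labelled mice, so the 2 probes of the gene gave nearly the same response.

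**Figure D2:**
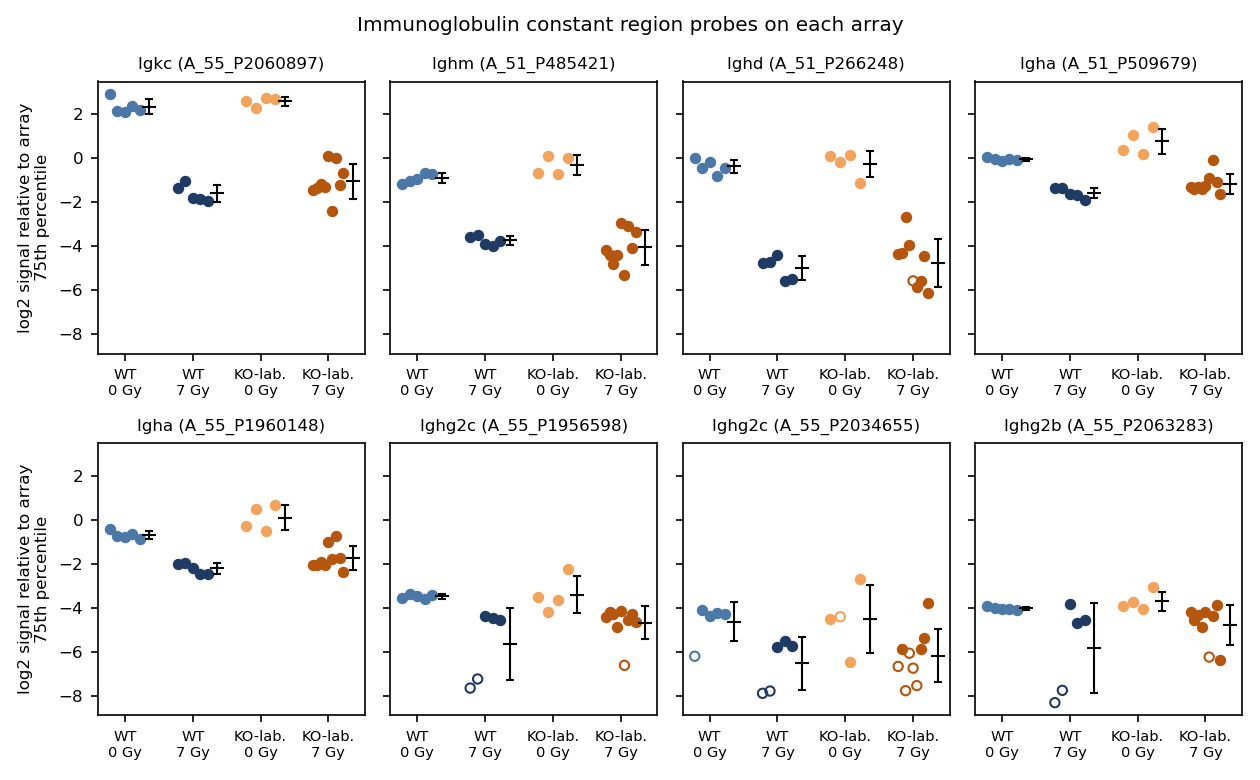
Level of the constant region probes (log2 processed signal less the 75th percentile of each array) on each array, in 4 groups by genotype label and dose; open circles mark arrays on which the probe was not well above background, and bars are the mean and SD. Igkc, Ighm, Ighd and both Igha probes fell with no overlap between doses, whereas WT 7 Gy arrays of Ighg2c and Ighg2b split between 2 at background and 3 higher ones.

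Because the 4 constant regions are measured on the same arrays, their changes can be set against each other array by array. The size of each change still depends on the probe's level and on how background was subtracted, as the normexp values above show. In WT mice the change of Ighd was 3.07 log2 units further down than that of Igha (-3.07, exact permutation p = 0.00794, adjusted p = 0.0119 over 12 such tests, two-sided, n = 5 against 5). The difference from Igha was -2.41 for Igkc and -1.30 for Ighm, each with an exact permutation p of 0.00794, the smallest that 5 against 5 arrays can give, and an adjusted p of 0.0119. The alpha constant region thus fell less than kappa, mu and delta, and no array of 1 dose reached the other dose in these 3 contrasts. Ighm in turn fell less than Ighd by 1.77 and less than Igkc by 1.11 (exact permutation, adjusted p = 0.0119 for each), and Igkc against Ighd gave 0.66 (exact permutation p = 0.0476, adjusted p = 0.0635). That last contrast turned to -0.93 with normexp correction, and the one of Ighm against Igha shrank to -0.47 (exact permutation, adjusted p = 0.019 and 0.0408).

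In KO-labelled mice kappa, mu and delta also fell further than alpha. Against Igha the change was -1.86 for Ighm and -1.76 for Igkc (exact permutation p = 0.0014, adjusted p = 0.00839 for each, n = 9 against 4, the smallest p that this design can give). For Ighd it was -2.59 (exact permutation p = 0.0042, adjusted p = 0.0119), with overlap between doses. The 3 other contrasts were 0.10 for Igkc less Ighm, 0.83 for Igkc less Ighd and 0.73 for Ighm less Ighd, with exact permutation p of 0.676, 0.343 and 0.411 (adjusted p = 0.676, 0.411 and 0.449). These 12 tests, on the mean of both Igha probes, were chosen after the values were seen. Without slide 6 the Ighd contrast in KO-labelled mice was -1.88 (exact permutation, adjusted p = 0.0635). With normexp correction it was -1.0 and the Ighm contrast -0.60 (exact permutation, adjusted p = 0.217 for each).

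The gamma constant regions, found on class-switched B cells and plasma cells, did not fall uniformly. Ighg2c probe A_55_P1956598 read -3.55, -3.38, -3.46, -3.61 and -3.43 in WT at 0 Gy and -7.64, -7.23, -4.36, -4.48 and -4.54 at 7 Gy, and the change was -2.16 ± 0.57 (SE, adjusted p = 0.00788). Ighg2b read between -4.11 and -3.93 in WT at 0 Gy and -8.30, -7.75, -3.84, -4.70 and -4.56 at 7 Gy, with a change of -1.80 ± 0.66 (SE, adjusted p = 0.0537, and 0.0423 with slide as a block). Both probes were at background on WT 7 Gy replicates 1 and 2 and above it on replicates 3 to 5, where Ighg2c still lay below all its 0 Gy values and Ighg2b lay on both sides of its own. The second Ighg2c probe, A_55_P2034655, followed the same split, at -7.88, -7.78, -5.76, -5.50 and -5.72, and changed by -1.89 ± 0.71 (SE, adjusted p = 0.0595, and 0.0369 with slide as a block).

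That split ran with marker levels of other cell types on the same arrays. The summed level of 8 hepatocyte marker genes was 2.80 and 2.81 on WT 7 Gy replicates 1 and 2 and 6.49, 6.55 and 6.62 on replicates 3 to 5, against -0.01 to 0.56 in unirradiated WT blood, and -0.47 to 1.99 without and 1.98 to 2.93 with irradiation in KO-labelled blood. Without the 3 WT 7 Gy arrays highest in those markers, Ighg2b changed by -4.0 in WT (adjusted p = 4.86e-05) and Ighg2c probe A_55_P2034655 by -3.20 (adjusted p = 0.0282). Without the 2 lowest, Ighg2c probe A_55_P1956598 changed by -0.97 (adjusted p = 0.124). The same arrays split by other marker sums too: replicates 1 and 2 read 5.41 and 5.49 for neutrophil markers against 6.97 to 7.17 on replicates 3 to 5, 2.79 and 2.79 against 1.97 to 2.04 for T cell markers, and 2.10 and 2.16 against 1.02 to 1.38 for NK cell markers. The part of these signals in the gamma values was not tested.

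In KO-labelled mice the same gamma probes changed less clearly. Ighg2c probe A_55_P1956598 read -3.53, -4.21, -3.65 and -2.23 at 0 Gy and between -6.61 and -4.15 at 7 Gy (median -4.44), a change of -1.26 ± 0.54 (SE, adjusted p = 0.0615). Ighg2b read -3.93, -3.74, -4.04 and -3.08 at 0 Gy and between -6.37 and -3.87 at 7 Gy (median -4.35), a change of -1.08 ± 0.63 (SE, adjusted p = 0.17). The doses overlapped for both. The second Ighg2c probe, A_55_P2034655, changed by -1.67 ± 0.68 (SE, adjusted p = 0.0478), a call that was lost when any of 16 of the 23 samples was left out (adjusted p up to 0.253, without KO-labelled 0 Gy replicate 5).

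Among the remaining constant regions, 1 Ighg1 probe was tested, which it reached through KO-labelled arrays alone. Ighg1 probe A_51_P461067 (chr12:114567263-114567322) was well above background on no WT array, on 4 of 5 KO-labelled 0 Gy arrays and on 1 of 9 KO-labelled 7 Gy arrays. Its level was -6.58, -6.91, -6.27 and -5.64 in KO-labelled mice at 0 Gy, and between -8.68 and -7.81 in WT at 0 Gy. The difference at 0 Gy was 1.86 ± 0.46 (SE, adjusted p = 0.11, and 0.0157 with the replicate number as a block), and the called one at 7 Gy, 1.57 ± 0.38 (SE, adjusted p = 0.00501), sets 9 arrays with 1 above background against 5 with none and turned to -0.27 with normexp correction. Both epsilon probes (Ighe), the Ighg3 probe, the second Ighg1 probe and the third Ighg2c probe were above background on too few arrays to be tested, between 0 and 3 of the 24.

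Kappa V segments, which carry the antigen-binding part of the light chain, were lower across the locus. Of 79 tested V probes, 72 were lower in WT and 75 in KO-labelled mice, against 13.2% and 34.8% of all tested probes. Over all 95 V probes the median change was -2.98 in each group. Igkv8-28 had the largest fitted fall in WT: it read -2.60, -2.96, -2.89, -2.60 and -2.91 at 0 Gy and -8.56, -8.57, -8.51, -8.10 and -7.63 at 7 Gy, all 5 at background. The fitted change was -5.48 ± 0.37 (SE, adjusted p = 5.24e-10), and the bound was a fall of at least 16.4-fold. Igkv6-17, whose probe shares 40 bases with that of Igkv8-28, fell at least 22-fold (fitted change -5.09 ± 0.40 SE, adjusted p = 3.73e-09), and Igkv12-46 at least 13.1-fold (-5.38 ± 0.47 SE, adjusted p = 1.74e-08).

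Igkv3-4 combined a steep fall with little spread in both genotype groups. Its probe A_52_P502849 read -3.16, -3.56, -3.56, -3.29 and -3.37 in WT at 0 Gy and between -8.93 and -8.45 at 7 Gy, and -2.99, -3.10, -2.91 and -3.09 in KO-labelled mice at 0 Gy and between -8.51 and -6.80 at 7 Gy. It was at background on all 14 arrays at 7 Gy. The fall was at least 10.9-fold in WT (fitted change -5.33 ± 0.23 SE, adjusted p = 1.4e-12) and at least 10.7-fold in KO-labelled mice (-4.85 ± 0.22 SE, adjusted p = 3.41e-12). The second Igkv3-4 probe fell at least 9.42-fold and at least 8.60-fold, and Igkv3-10 probe A_55_P1978033 at least 7.18-fold and at least 7.67-fold. These bounds are on the processed signal. With normexp correction and slide as a block, the KO-labelled changes of Igkv3-10 and of an Igkv3-4 probe turned positive. In that fit 68.6% of all probes were higher. The next largest fitted falls in KO-labelled mice included Igkv12-46 (-4.82 ± 0.45 SE) and Igkv17-121 (-4.46 ± 0.34 SE), each with a single 7 Gy array above background.

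Among the brighter V probes, Igkv4-71 stayed above background on every array and so gave a measured size. It read -1.26, -1.48, -1.39, -1.17 and -1.37 in WT at 0 Gy and -4.58, -4.28, -4.84, -5.31 and -5.73 at 7 Gy, a change of -3.61 ± 0.36 (SE, 12.2-fold lower, adjusted p = 9.21e-08). The KO-labelled change was -3.50 ± 0.34 (SE, 11.3-fold lower, adjusted p = 4.78e-08). On the processed signal these values lie close to those of the kappa constant region. With normexp correction, by the values given earlier, Igkv4-71 fell less than Igkc in both groups. Igkv4-68 changed by -4.19 and -3.83, Igkv4-62 by -3.95 and -3.61 and Igkv14-111 by -2.33 and -2.99 in WT and KO-labelled mice, all called lower. After 7 Gy these 3 were above background on 2, 1 and 5 of 5 WT arrays and on 4, 4 and 6 of 9 KO-labelled arrays, so the sizes of Igkv4-68 and Igkv4-62 rest largely on background values. Igkv14-111 was not called in WT without the 3 arrays highest in hepatocyte markers (-1.65, adjusted p = 0.097).

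A bright exception was Igkv4-72, numbered next to Igkv4-71 in the same family. It was well above background on all 24 arrays and read -2.21, -3.42, -3.36, -3.65 and -3.76 in WT at 0 Gy and -2.75, -3.28, -3.76, -3.58 and -4.06 at 7 Gy. In KO-labelled mice it read -3.43, -2.41, -2.80 and -4.39 at 0 Gy and between -3.84 and -1.49 at 7 Gy (median -2.70). The doses overlapped in both groups, and the changes were -0.20 ± 0.42 (SE, adjusted p = 0.81) and 0.48 ± 0.40 (SE, adjusted p = 0.337), with the 7 Gy arrays of the 2 labels differing by 0.91 with slide as a block (adjusted p = 0.0297) and by 0.71 without it (adjusted p = 0.18).

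**Figure D3:**
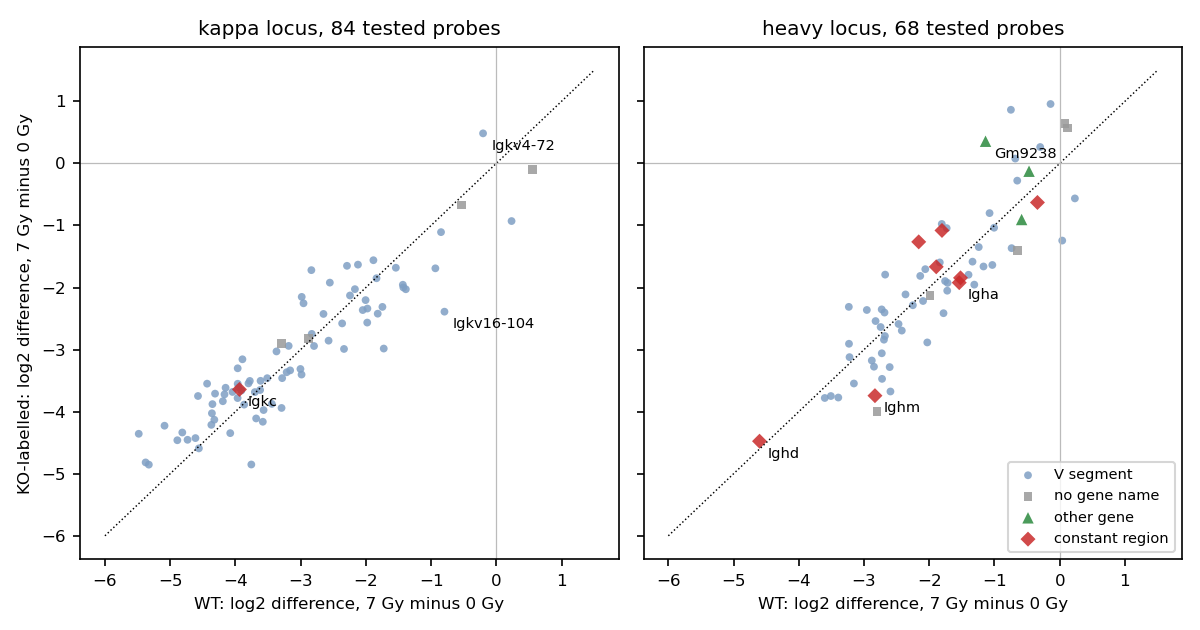
Response to 7 Gy (log2 difference from 0 Gy) of each tested probe in WT mice (horizontal) and KO-labelled mice (vertical), for 84 kappa and 68 heavy probes, by kind of segment; the dotted line marks equal responses. Most points lie below 0 on both axes near the line, and Igkv16-104 and Gm9238 are the labelled points whose responses were called different.

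In the heavy locus 41 of 52 tested V probes were lower in each genotype group, against 13.2% of all tested probes in WT and 34.8% in KO-labelled mice. The median change was -1.01 in WT and -1.04 in KO-labelled mice over all 97 V probes. Ighv1-37 read -4.56, -5.04, -4.36, -4.67 and -4.46 in WT at 0 Gy and -8.38, -8.0, -8.16, -8.33 and -8.23 at 7 Gy, where every array was at background. On the processed signal it fell at least 4.63-fold in WT (fitted change -3.60 ± 0.30 SE, adjusted p = 9.14e-09) and at least 4.66-fold in KO-labelled mice (-3.78 ± 0.29 SE, adjusted p = 1.49e-09). With normexp correction its WT change turned positive. Ighv1-7 changed by -3.51 ± 0.30 and -3.75 ± 0.28 (SE), and Ighv14-3 by -3.39 ± 0.32 and -3.77 ± 0.30 (SE), all called lower with a few 7 Gy arrays still above background. A probe without a gene name, A_55_P1966608, changed by -2.80 ± 0.36 and -3.99 ± 0.34 (SE), also lower in both groups.

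Bright heavy V probes were mixed. Ighv1-64 read -3.69, -3.90, -3.10, -3.86 and -3.54 in WT at 0 Gy and -5.45, -5.50, -4.95, -5.35 and -5.44 at 7 Gy, a change of -1.72 ± 0.38 (SE, adjusted p = 0.00193), and changed by -1.93 ± 0.36 (SE, adjusted p = 0.000162) in KO-labelled mice. It was lower in both, with overlap between doses in KO-labelled mice. Ighv5-17 and Ighv1-49 were not called in either group: Ighv5-17 changed by -0.68 (adjusted p = 0.344) and 0.08 (adjusted p = 0.903), and Ighv1-49 by -0.14 (adjusted p = 0.929) and 0.96 (adjusted p = 0.225). With slide as a block Ighv1-49 was higher at 7 Gy in KO-labelled mice (1.54, adjusted p = 0.00277), and the responses differed between labels by 1.68 for Ighv1-49 (adjusted p = 0.0289) and 1.29 for Ighv5-17 (adjusted p = 0.0324). The highest KO-labelled 7 Gy value of Ighv5-17, Ighv1-49 and Igkv4-72 came from the same array, replicate 3 (-1.59, -1.34 and -1.49), whose repeat spots were noisy. Ighv1-56 changed by -0.65 in WT (adjusted p = 0.0595, and 0.0308 with slide as a block) and by -0.28 in KO-labelled mice (adjusted p = 0.347).

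By V family, the fall was spread across the kappa locus and leaned on 1 large family in the heavy locus. All 9 tested Igkv3 probes and all 9 tested Igkv6 probes were lower in both groups, with median changes of -4.56 and -3.94 for Igkv3 and -3.28 and -3.46 for Igkv6 in WT and KO-labelled mice. Of 19 tested Igkv4 probes, 18 were lower in WT and 17 in KO-labelled mice. In the heavy locus 28 and 27 of 30 tested Ighv1 probes were lower, with a median of -2.25 and -2.31 over all 41 members, whereas of the 22 tested probes of the other heavy families 13 and 14 were lower, with a median of -0.55 in each group over all 56 members. Over all tested probes 13.2% were lower in WT and 34.8% in KO-labelled mice. The tested members entered mainly through their 0 Gy arrays, so these counts describe them on the processed signal only. No test of families was made, and more members of the other families were dim at 0 Gy.

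Along the kappa locus, in bins of 0.5 Mb from the Igkc probe, with 12 to 18 V probes in each of the first 6 bins, the median change lay between -3.70 and -2.01 in WT and between -3.50 and -2.30 in KO-labelled mice. Within the sixth bin, 5 neighbouring V probes from Igkv11-125 to Igkv1-131, 2.81 to 2.96 Mb out, were called in neither group, with changes from -1.01 to 0.23 in WT and from -1.39 to -0.80 in KO-labelled mice. Of these 5 only Igkv14-126 was bright enough to be tested (0.23, adjusted p = 0.885, and -0.93, adjusted p = 0.284), and Igkv9-124 and Igkv1-132 on either side were lower in both groups. In the heavy locus, measured from the Ighm probe, the nearest 2 bins had medians of -0.74 and -0.02 in WT and -0.71 and -0.50 in KO-labelled mice, and the next 3 bins medians of -1.76, -1.31 and -1.75 in WT and -1.90, -1.80 and -2.11 in KO-labelled mice. In those nearest 2 bins 8 of 19 and 8 of 26 probes were bright enough to be tested, against 16 of 23, 10 of 14 and 8 of 12 farther out, so the bins also differ in how many probes could show a fall.

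**Figure D4:**
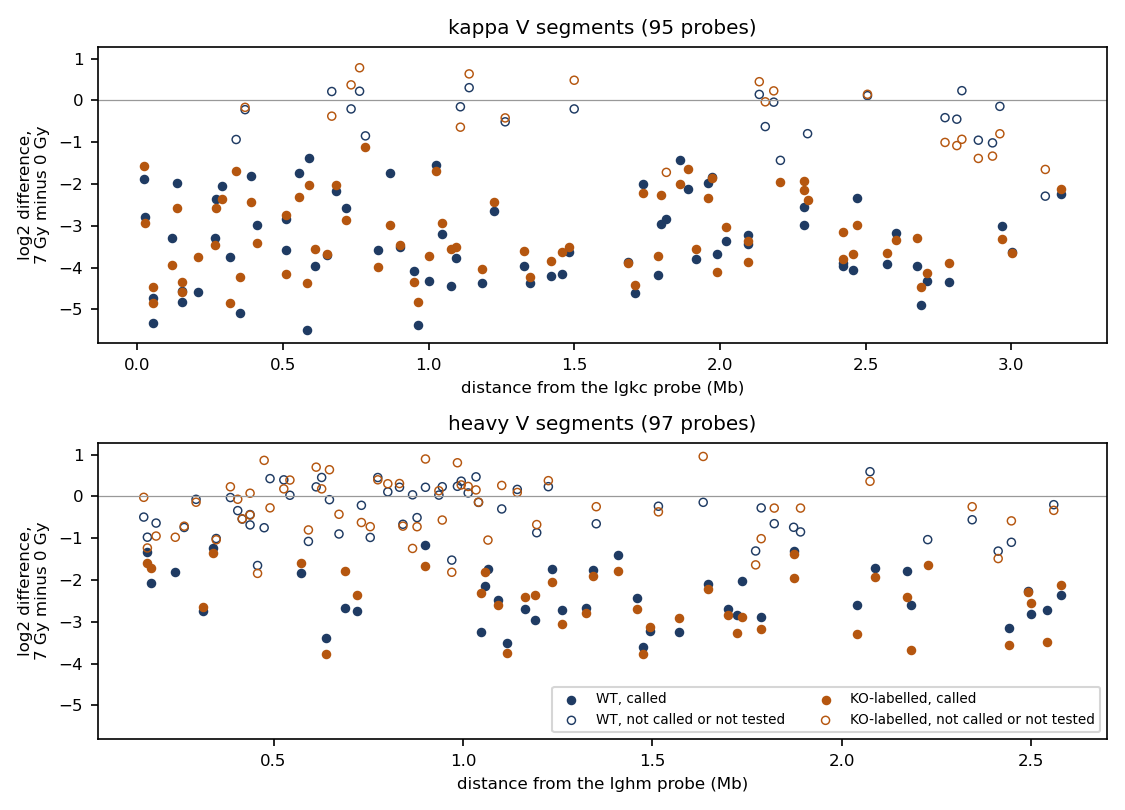
Response to 7 Gy (log2 difference) of each V segment probe against its distance in Mb from the constant region probe of its locus (Igkc for 95 kappa probes, Ighm for 97 heavy probes); filled points passed the test and open points did not or were not tested, blue for WT and orange for KO-labelled mice. Most kappa responses lie well below 0, apart from a few open points such as those between 2.81 and 2.96 Mb, and heavy responses near Ighm are mostly open points close to 0.

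Some genes had more than 1 tested probe. For 6 kappa genes the gap between probes had a median of 0.34 in WT and 0.45 in KO-labelled mice and was at most 0.92 (Igkv6-13, WT). For 3 heavy genes the gaps were 0.27 and 0.40, at most 0.59 (Ighv8-8, KO-labelled). Of the Ighv8-8 probes, 1 changed by -0.74 and the other by -1.31 in WT, a gap nearly as large as the smaller change. Probes annotated to V pseudogenes were few: 1 of 2 tested kappa and 1 of 3 tested heavy pseudogene probes were lower in each group.

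The response differed between the genotype labels for 1 kappa and 1 heavy probe of those tested, against 15.2% of all tested probes. Igkv16-104 read -5.46, -5.34, -5.27, -4.96 and -5.08 in WT at 0 Gy and -6.91, -6.43, -5.46, -5.90 and -5.39 at 7 Gy, and -4.82, -4.33, -4.92 and -4.52 in KO-labelled mice at 0 Gy and between -7.97 and -6.28 at 7 Gy (median -7.03). The doses overlapped in WT and not in KO-labelled mice. The change was -0.79 ± 0.30 (SE, adjusted p = 0.06, and 0.0352 with slide as a block) in WT and -2.39 ± 0.28 (SE, adjusted p = 7.77e-07) in KO-labelled mice, and the difference of the responses was -1.59 ± 0.41 (SE, adjusted p = 0.0139). That difference was -0.94 (adjusted p = 0.196) without the 3 WT 7 Gy arrays highest in hepatocyte markers, and it missed the threshold with each array centred on its median (-1.29, adjusted p = 0.262) and in the authors' deposited value table (-1.01, adjusted p = 0.118).

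At 0 Gy no kappa or heavy probe differed between the labels by limma's adjusted p, against 0.229% of all tested probes called; at an unadjusted p under 0.05 there were 12 kappa and 4 heavy probes. Of the 109 kappa probes, without the filter on dim probes, 104 had a higher mean in KO-labelled mice, with a median difference of 0.46. The median over the heavy probes, also unfiltered, was 0.23. Over all tested probes the median was 0.10, and it depended on scaling. It was -0.15 with median centring, -0.01 with the 75th percentile over all probes and -0.03 with quantile normalization. The share of all probes with a higher mean is not given here, and many members share sequence. At 7 Gy, 22.2% of all tested probes were called between the labels, 4.4% higher and 17.8% lower in KO-labelled mice. Of the kappa probes, 17 were higher and 1 lower (Igkv16-104), and of the heavy probes 5 were higher and 1 lower (Ighv1-67). Of the 17 higher kappa probes, 4 were at background in both groups and a further 12 were above background on no WT array, so the 5 bounds that could be set were at least 1.02-fold to at least 1.78-fold. The 4 with the largest fitted differences, Igkv8-28, Igkv2-109 probe A_55_P1974014, Igkv6-17 and Igkv9-120, were above background on no WT 7 Gy array and on 4, 3, 4 and 1 KO-labelled ones. Their bounds were at least 1.10-fold, at least 1.12-fold and at least 1.78-fold, with none for Igkv9-120, and with normexp correction their differences were -0.27, -0.27, -0.085 and -0.35, on the other side of 0.

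These counts at 7 Gy moved with the processing. With slide as a block 32 kappa and 24 heavy probes were called, and without the filter on dim probes 11 kappa probes were higher and 1 lower, and 2 heavy probes were higher. With normexp correction neither locus had a called probe. Of the 5 heavy probes called higher, Gm9238 (1.06) was measured in both groups. Ighg1, Ighv1-81 and Ighv9-2 were above background on no WT 7 Gy array and Ighv9-3 on none of either group, so no bound could be set for these 4. The split of all called probes at 7 Gy also depends on scaling, since 19.8% of them were higher in KO-labelled mice with the scaling used here, 48.5% with the 75th percentile over all probes, 33.9% with quantile normalization and 23.9% with median centring.

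The windows also hold genes that are not antibody segments, of which 3 heavy locus probes were tested. In WT 2 of the 3 were lower, and in KO-labelled mice 1. Gm9238, a predicted gene at the far end of the heavy window, was bright on every array, at 2.76, 2.96, 2.89, 3.11 and 2.92 in WT at 0 Gy and 2.07, 2.21, 1.55, 1.71 and 1.43 at 7 Gy. In KO-labelled mice it read 3.12, 1.36, 2.86 and 2.64 at 0 Gy and between 2.05 and 3.49 at 7 Gy (median 2.86). The doses stood apart in WT and overlapped in KO-labelled mice. The change was -1.14 ± 0.30 (SE, adjusted p = 0.0084) in WT and 0.36 ± 0.29 (SE, adjusted p = 0.33) in KO-labelled mice, a difference of 1.49 ± 0.42 (SE, adjusted p = 0.0216). Without KO-labelled 0 Gy replicate 2, the low value of 1.36 on an array with noisy repeat spots, the difference was 1.12 (adjusted p = 0.0542), and without the 3 WT 7 Gy arrays highest in hepatocyte markers it was 1.15 (adjusted p = 0.18).

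Gm19843 and the unnamed kappa locus probe A_55_P1988328, which share the 19-base run shown above, fell modestly in both groups. Gm19843 changed by -0.58 (adjusted p = 0.011) in WT and -0.90 (adjusted p = 5.68e-05) in KO-labelled mice, and A_55_P1988328 by -0.54 (adjusted p = 0.0127) and -0.67 (adjusted p = 0.00064), with no overlap between doses. With each array centred on its median neither was called in either group, and without the 3 WT 7 Gy arrays highest in hepatocyte markers neither was called in WT (-0.28 and -0.25). Both probes share longer runs with probes elsewhere in the genome: A_55_P1988328 shares 31 bases with a probe of another predicted gene and 25 with one of a ribosomal protein L7A pseudogene, and Gm19843 shares 29 with probes of 2 other predicted genes. Whether they take up transcripts from outside these loci was not tested. Adam6b, a sperm protein gene in the heavy locus, changed by -0.47 (adjusted p = 0.559) and -0.13 (adjusted p = 0.84), and Adam6a, Gm30948, Rpl7a-ps2, 4930515G16Rik and Gm30211 were too dim to be tested.

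The lambda light chain locus, the other source of light chains, was mostly lower too on the processed signal. Of its 11 probes, on chromosome 16, 8 were tested and 7 were lower in each group, against 13.2% of all tested probes in WT and 34.8% in KO-labelled mice. At 0 Gy 8 of the 11 were above background on at least 5 arrays, and at 7 Gy 6 were. The median change over all 11 was -3.22 in WT and -3.17 in KO-labelled mice. Values with normexp correction are not given for this locus. Among its constant regions Iglc1 changed by -3.22 and -3.42 and Iglc2 by -4.82 and -4.47, and its V segments Iglv1 by -3.46 and -3.17 and Iglv3 by -3.65 and -3.52, all lower. The exception was the unnamed probe A_55_P2301941, which changed by 0.88 (adjusted p = 0.184) in WT and was higher in KO-labelled mice (1.35, adjusted p = 0.0133).

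Most measured genes that work with the antibody chains were lower too. Of 24 such genes 18 were tested, of which 10 were lower and none higher in WT, and 14 lower and 1 higher in KO-labelled mice, against 13.2% and 34.8% of all tested probes lower and 9.84% and 11.9% higher. Cd79a and Cd79b, the signalling chains that pair with surface immunoglobulin, changed by -4.04 ± 0.71 and -4.88 ± 0.49 (SE) in WT and by -5.19 and -4.97 in KO-labelled mice, and the adaptor Blnk by -3.70 and -4.03. The complement receptor Cr2 changed by -2.38 and -2.26. Among the 7 signalling partners 5 were lower in WT and 6 in KO-labelled mice, and Cd81, a tetraspanin that many blood cells carry, was higher in KO-labelled mice (1.30, adjusted p = 6.51e-06) and changed by 0.42 in WT (adjusted p = 0.135).

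Of the genes for antibody secretion and the plasma cell programme, 4 of 6 tested were lower in WT and 5 of 6 in KO-labelled mice. The coactivator Pou2af1 changed by -4.47 and -4.93, the secretory chaperone Mzb1 by -2.75 and -2.81 and the factor Irf4 by -1.98 and -1.99. The joining chain of IgA and IgM polymers, Jchain, changed by -0.85 (adjusted p = 0.0274) and -1.40 (adjusted p = 0.000133), and Xbp1, which drives the secretory machinery, by -0.27 (adjusted p = 0.399) and -0.10 (adjusted p = 0.688). Vpreb3, a surrogate light chain family member of B cells, fell by 5.88 in WT (-5.88 ± 0.39 SE, adjusted p = 3.62e-10) and 5.90 in KO-labelled mice (-5.90 ± 0.37 SE, adjusted p = 1.61e-10), while Vpreb1 and Vpreb2 were not called. Of the recombination and class switching genes, Dntt changed by -0.87 (adjusted p = 0.111) and -1.56 (adjusted p = 0.00127) and Ung by -0.42 (adjusted p = 0.389) and -1.25 (adjusted p = 0.00149), and Rag1 and Rag2 were too dim to be tested.

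**Figure D5:**
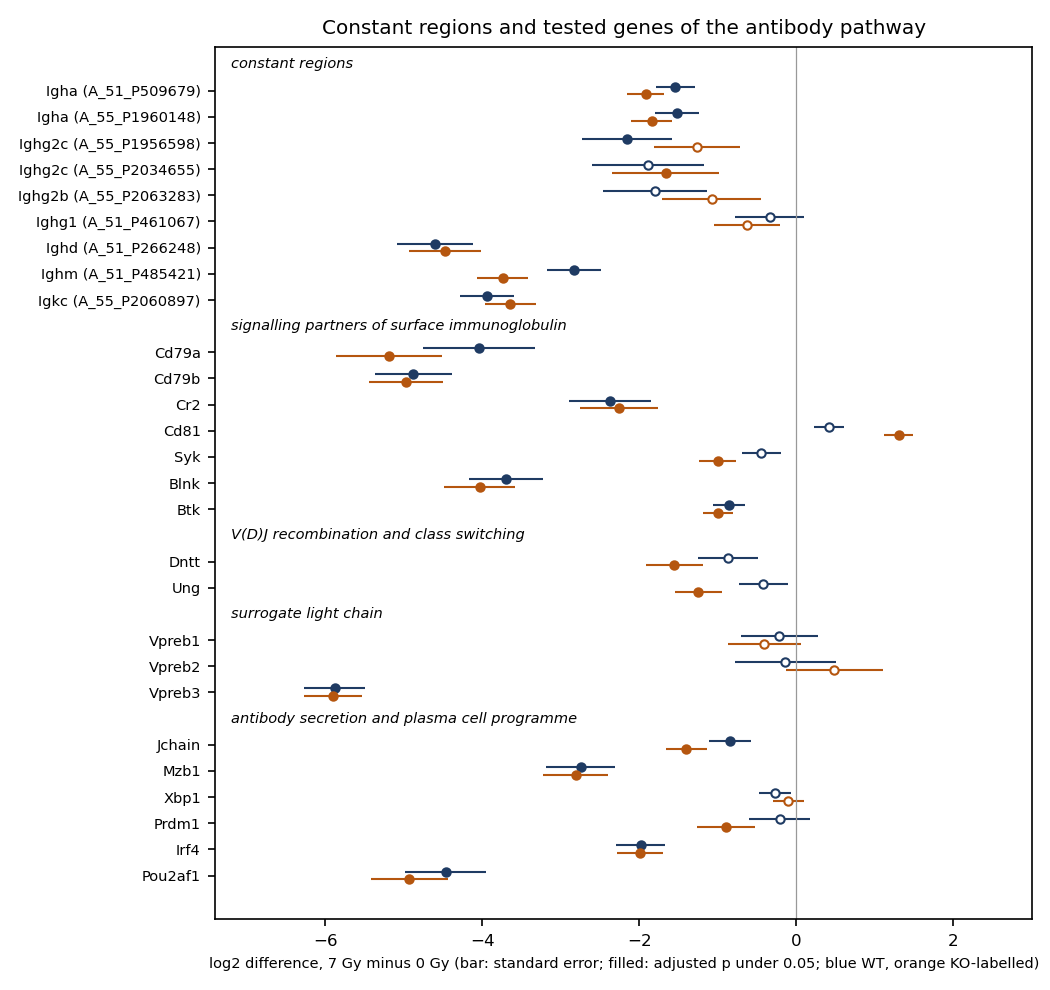
Response to 7 Gy (log2 difference with its SE) of the constant regions and of the tested antibody pathway genes, grouped by role; blue for WT, orange for KO-labelled mice, filled where the adjusted p was under 0.05. Cd79a, Cd79b, Blnk, Pou2af1 and Vpreb3 lie near or below Igkc and Ighd, and Xbp1 lies near 0.

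Markers of whole cell types moved beside the immunoglobulin signal. All 7 B cell markers were lower in both groups, and their summed level went from between 2.86 and 3.08 to between -2.26 and -0.50 in WT and from between 3.25 and 3.55 to between -2.58 and -0.32 in KO-labelled mice, with no overlap. Of the plasma cell markers 3 of 5 tested were lower in WT and 4 of 5 in KO-labelled mice, and the summed level went from between 0.20 and 0.44 to between -0.28 and -0.08 in WT and from between 0.16 and 0.73 to between -0.80 and 0.58 in KO-labelled mice. T cell markers were lower for 2 of 7 genes in WT and 5 of 7 in KO-labelled mice, hepatocyte markers were higher for 8 and 6 of 8, and platelet markers higher for 2 and 3 of 4. Over all tested probes 13.2% were lower and 9.84% higher in WT, and 34.8% lower and 11.9% higher in KO-labelled mice. The summed NK cell marker level went from between 0.58 and 0.87 to between 1.02 and 2.16 in WT (1 of 4 genes higher) and from between 0.99 and 1.73 to between -1.57 and 0.78 in KO-labelled mice (2 of 4 lower), without overlap in either. Neutrophil markers went from a median of 6.21 to 6.97 in WT (1 of 6 lower) and from 5.44 to 3.36 in KO-labelled mice (2 of 6 lower), with overlap in both. Erythroid markers went from a median of 9.09 to 9.48 in WT (2 of 5 lower) and from 8.76 to 9.81 in KO-labelled mice (3 of 5 higher, 2 lower), and monocyte markers from 2.16 to 2.15 (none of 3 called) and from 1.88 to 2.30 (1 of 3 higher). The part of changing cell composition in the immunoglobulin values was not tested.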

How the data were processed

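RNA from PAXgene-preserved mouse blood was labelled with Cy3 and hybridised to one-colour Agilent arrays, per the labels' protocols. Per the submitters' processing notes, Agilent Feature Extraction 12.0.2 was used. The deposited scanner files hold 44397 spots each, 43020 of them non-control, as linear intensity; the processed signal is background-subtracted, per the file headers. Spots of 1 probe were averaged after log2, and each array was centred on its 75th percentile over 7857 probes, those above background on every one of 24 arrays (75th percentile signal, 25.8 to 105). Groups followed the genotype and dose labels. Nothing in the labels says that arrays came from separate animals, so p-values measure the spread between these arrays, which may be technical, and their number limits the precision.

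The deposited value table holds log2 values of 12863 probes (41 kappa and 42 heavy members) with column medians from 5.76 to 7.18; the authors do not state its scaling, and between 71.2% and 98.8% of a column's values lay within 0.001 of log2 processed signal plus 1 constant per array (lowest r = 0.988), so how the remaining values were made is not known. No column of another series was found among them. It served as an alternative.

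The fit used limma 3.58.1 (lmFit, eBayes) in R 4.3.3 with the data.table package (1.17.8), the threshold being an adjusted p of 0.05, and was tested on simulated data. Python 3.11.15, pandas 2.3.3, NumPy 2.4.6 and matplotlib 3.10.9 drew the figures. A probe not above background on any array of a group has a bound: the mean of the brighter group against the mean, per array, of the higher of the lowest signal well above background and the probe's own, written as at least N-fold. Bounds were set on the processed signal only. Fold changes elsewhere are 2 to the power of the fitted difference. Gene names came from the array annotation and RefSeq tables; no mm9 genome was used.

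Named were all constant regions, the 6 other probes of each locus with the highest mean level, the 4 largest called changes in each direction per response among probes detected on all arrays of either group compared, the 4 called probes with the largest genotype effects, and genes that are not segments. Members, lists and the named-gene rule were chosen with earlier results of these data known. Some list members are not reported here and enter no count. Alternatives covered scaling, background correction, the filter, slide and replicate blocks, the deposited table, noisy arrays, hepatocyte-marked arrays and leaving out each sample. The replicate number 1 to 5 is also the slide number, per the file headers, and scan days follow slides, with slides 3 and 4 scanned on 1 day. Deviations of same-numbered arrays correlated from -0.39 to 0.72 (median 0.24, 20 of 30 pairs over 0.1), so the numbers share a slide and were not treated as pairing the mice.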

Additional observations from a re-analysis of the deposited data

Results flagged for a closer look

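The levels of tested constant region probes, of the brightest other probes and of the locus medians were searched within each group for a single array far from the rest. Of 92 such searches, 8 found one. Chance gives about 1 in 20 for independent searches, but these use the same arrays and some of the 8 are the same probe. Igha probe A_51_P509679 stood high at -0.088 on KO-labelled 7 Gy replicate 7 (next -0.91). Ighg2c probe A_55_P1956598 stood low at -6.61 on KO-labelled 7 Gy replicate 6 (next -4.88), and Ighg2c probe A_55_P2034655 low at -6.20 on WT 0 Gy replicate 1 (next -4.35). Igkv4-72 stood high at -2.21 on that same WT 0 Gy array (next -3.36), and Igkv4-71 high at -0.30 on KO-labelled 0 Gy replicate 2 (next -1.01); both arrays have noisy repeat spots.

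Ighv1-64 was high on the third replicate in 3 groups, all on slide 3: -3.05 in KO-labelled mice at 0 Gy (next -3.56), -3.30 in KO-labelled mice at 7 Gy (next -4.99) and -4.95 in WT at 7 Gy (next -5.35). The fourth group had its highest value, -3.10, on the same slide.

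Responses differed between the genotype labels by a test of the difference for Gm9238 (1.49) and Igkv16-104 (-1.59).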

How the results depend on the processing

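The limits come first. Most kappa and heavy probes were at background after 7 Gy, so the processed signal there is set by how background was subtracted, and this choice mattered most. Igkc, Ighm, Ighd, 1 Igha probe and Igkv4-71 were called lower in both groups under either treatment. Leaving out each sample in turn gave 76 to 78 kappa probes called in WT and 77 to 80 in KO-labelled mice, 47 to 52 and 49 to 52 heavy probes, 1 to 2 kappa and 0 to 2 heavy differences of response, 0 to 0 kappa and 0 to 1 heavy probes between the labels at 0 Gy, and 12 to 22 kappa and 2 to 6 heavy probes at 7 Gy. The heavy difference, Gm9238, went to 0 without KO-labelled 0 Gy replicate 2 and the count to 2 without WT 7 Gy replicate 1; the 7 Gy heavy count was 2 without WT 7 Gy replicate 4 and 3 without KO-labelled 7 Gy replicate 4, against 6; the 0 Gy heavy count was 1 without KO-labelled 7 Gy replicate 9; and the kappa difference count was 2 without KO-labelled 7 Gy replicate 5.

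Normexp correction (offset 50) gave 2 and 3 kappa and 4 and 5 heavy probes called in WT and KO-labelled mice, and 0 in both loci for the difference of responses and at 7 Gy. An offset of 1, chosen after seeing the data, gave 2 and 3 kappa, 5 and 5 heavy, and 0 for both other comparisons. Normexp with slide as a block, also chosen after seeing the data, gave 2 kappa and 5 heavy probes in WT and, in KO-labelled mice, 37 kappa probes (34 higher, 3 lower) and 53 heavy probes (48 higher, 5 lower), with 0 for both other comparisons; in that fit 68.6% of all probes were higher in KO-labelled mice, with a median of 1.14. Requiring signal above background on all 24 arrays leaves 4 kappa and 5 heavy members. Of these, 3 and 3 kappa and 5 and 4 heavy probes were called in WT and KO-labelled mice. There were 0 kappa differences, and 0 kappa and 1 heavy probe at 7 Gy. Single linkage of near-identical arrays left 3 KO-labelled 0 Gy, 4 KO-labelled 7 Gy and 3 WT 7 Gy samples, so it merged arrays at both doses. Averaging near-identical arrays by single linkage, which leaves 1 WT 0 Gy sample because of the noisy array, gave 41 kappa and 12 heavy probes in WT, and 0 in both loci for the difference and at 7 Gy.

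For the difference of responses and the 7 Gy comparison, median centring gave 0 kappa and 0 heavy differences and 5 kappa and 1 heavy probe at 7 Gy; the deposited values gave 0 kappa differences and 5 and 1; no filter 0 heavy differences and 2 heavy probes; the 75th percentile over all probes 29 kappa probes; quantile normalization 9 kappa probes; trend and robust estimation 3 heavy probes. Slide as a block gave 2 and 4 differences and 32 and 24 probes at 7 Gy. With the replicate block, 6 kappa and 7 heavy differences, 1 heavy probe at 0 Gy, and 38 kappa and 33 heavy probes at 7 Gy were called. Of 20 arrays 11 correlated best with their own number. For named probes 20 comparisons passed the threshold under that block that did not otherwise and none was lost. Fits with slide or replicate as a block count all 24 arrays singly. They take the KO-labelled 7 Gy effect from slides 1 to 5 alone, so they differ from the main fit in more than the block. Without the noisy arrays there were 0 heavy differences. Chosen after seeing the data, leaving out the 3 WT 7 Gy arrays highest in hepatocyte markers gave 0 kappa and 2 heavy differences and 2 kappa and 3 heavy probes at 7 Gy, leaving out the 2 lowest 3 heavy differences, and leaving out slide 6 3 kappa and 2 heavy differences, 1 heavy probe at 0 Gy, and 33 kappa and 17 heavy probes at 7 Gy.

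Some changes turned sign, and the cause was not tested. With normexp at offset 50 the WT response was 0.17 for Igkv2-109, 0.21 for Igkv9-120, 0.32 for Ighv1-37, 0.17 for A_55_P1966608, 0.63 for Ighv1-81 and 0.59 for Ighv9-2; the KO-labelled response was 0.051 for Ighg2c probe A_55_P2034655, 0.040 for Igkv16-104, 0.20 for Ighv1-81 and 0.41 for Ighv9-2; the 7 Gy difference between labels was -0.27 for Ighg1, -0.27 for Igkv8-28, -0.38 for Igkv3-4, -0.085 for Igkv6-17, -0.27 for Igkv2-109, -0.35 for Igkv9-120, -0.31 for Ighv1-81 and -0.30 for Ighv9-2; and Igkc less Ighd in WT was -0.93. At offset 1 the WT response was 0.060 for Igkv9-120, 0.0018 for Ighv1-37, 0.60 for Ighv1-81 and 0.45 for Ighv9-2, and the 7 Gy difference -0.44 for Ighg1, -0.48 for Igkv8-28, -0.76 for Igkv3-4, -0.44 for Igkv2-109, -0.69 for Igkv9-120, -0.57 for Ighv1-81 and -0.74 for Ighv9-2. With normexp and slide as a block the WT responses were those at offset 50, and the KO-labelled response was 0.71 for Ighg2c, 1.48 for Ighg1, 0.23 for Igkv3-10, 0.16 for Igkv3-4, 1.0 for Igkv16-104, 0.39 for Igkv2-109, 0.59 for Igkv9-120, 0.48 for Ighv1-64, 1.22 for Ighv1-56, 0.66 for Ighv1-37, 0.15 for Ighv1-7, 0.60 for A_55_P1966608, 1.13 for Ighv1-81, 1.35 for Ighv9-2 and 1.60 for Adam6b; for Igkv16-104 the difference of responses was 0.38 and the 7 Gy difference 0.50. In the deposited table the 7 Gy difference of Ighv1-81 was -0.066. Over all named probes and settings, 6884 values kept their sign and stayed called or stayed not called. With the same sign, 239 lost the call and 99 gained it. A further 53 turned sign with a call in at least 1 of the fits compared, and 320 turned sign with no call in either.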
